A study of Homo sapiens with 6 samples.

Results

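The transcripts of 10 genes of the HSP90 machine were followed in 2 prostate cancer cell lines treated with HSP70 inhibitors. The rule that defines them uses gene symbols and no measured value, though it was set with earlier results of these data known, and they are 10 of the 60658 genes listed. They encode the HSP90 chaperones HSP90AA1, HSP90AB1 and TRAP1, the co-chaperones AHSA1, CDC37, PTGES3 (p23) and STIP1 (HOP), the steroid receptor immunophilins FKBP4 (FKBP52) and FKBP5 (FKBP51), and the heat shock transcription factor HSF1. All 10 were above 0.1 FPKM in all 6 libraries and none was lost to the filter on low values. FPKM is the number of sequenced fragments of a transcript scaled by its length and by the size of the library, so levels of different genes are given per length.

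C4-2B MDVR cells were made resistant to the antiandrogen enzalutamide and were kept in medium with 20 µM of it. CWR22Rv1 cells, which the paper also describes as resistant to enzalutamide, were cultured without it. Each line received DMSO, the vehicle, or 10 µM of apoptozole (APO) or VER155008 (VER), both inhibitors of the HSP70 ATPase, for 48 h, and 1 library was made of each of the 6 conditions. Titles name the first line C4-2B MDVR, whereas other label fields give its source as LNCaP-C4-2B cells and call it parental, and the titles were followed. No condition had a replicate, so no value below has an error, a test or a p-value, and each difference is between single libraries.

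HSP90 is an ATP-driven dimer that completes the folding of client proteins, among them steroid receptors such as the glucocorticoid receptor. A receptor is first bound by HSP70 and is passed on to HSP90 by STIP1, which binds both chaperones. The mature complex then holds p23 and an immunophilin, and FKBP4 and FKBP5 compete for the same docking site on HSP90. HSF1 is held inactive by chaperones in unstressed cells and drives transcription of HSP90 and HSP70 genes after heat or protein damage.

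The libraries had the markers of luminal prostate cells. Whether the first line was the resistant or the parental one was not tested with these markers. Of 7 luminal prostate genes, KLK3 and KRT8 among them, all were above 1 FPKM in each library, and the basal markers KRT5 and TP63 were listed at 0 throughout. Summed neuroendocrine markers (CHGA, SYP and ENO2) lay between 15.6 and 139.8 FPKM and were higher in CWR22Rv1. Summed stromal markers were between 4.87 and 11.0 FPKM, leukocyte markers between 0.307 and 3.78 FPKM, and endothelial markers reached at most 0.294 FPKM. Mitochondrial transcripts held 25.7% of the FPKM in the CWR22Rv1 DMSO and VER libraries but 10.4% in the CWR22Rv1 APO library, and 14.8% to 16.4% in C4-2B MDVR. Relative depth, estimated from the smallest listed values, was 1 to 1.64 times that of the C4-2B MDVR DMSO library. Values after scaling to the sum without mitochondrial genes are given in the last section. Beyond that, the part of these differences in the results was not tested.

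In C4-2B MDVR, transcripts of both cytosolic HSP90s, of STIP1, AHSA1, p23 and CDC37, and of both immunophilins were lower in each inhibitor library than in the DMSO library. FKBP5 stood apart, at 139 FPKM with DMSO but 22.9 FPKM with APO and 20.6 FPKM with VER. In CWR22Rv1 the differences were smaller, and with VER the cytosolic HSP90s, AHSA1 and p23 lay within 1.2-fold of DMSO. HSF1 was not lower past 1.2-fold in any inhibitor library. In bulk RNA, fewer cells that express a gene and less RNA of it per cell cannot be told apart.

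**Figure D1:**
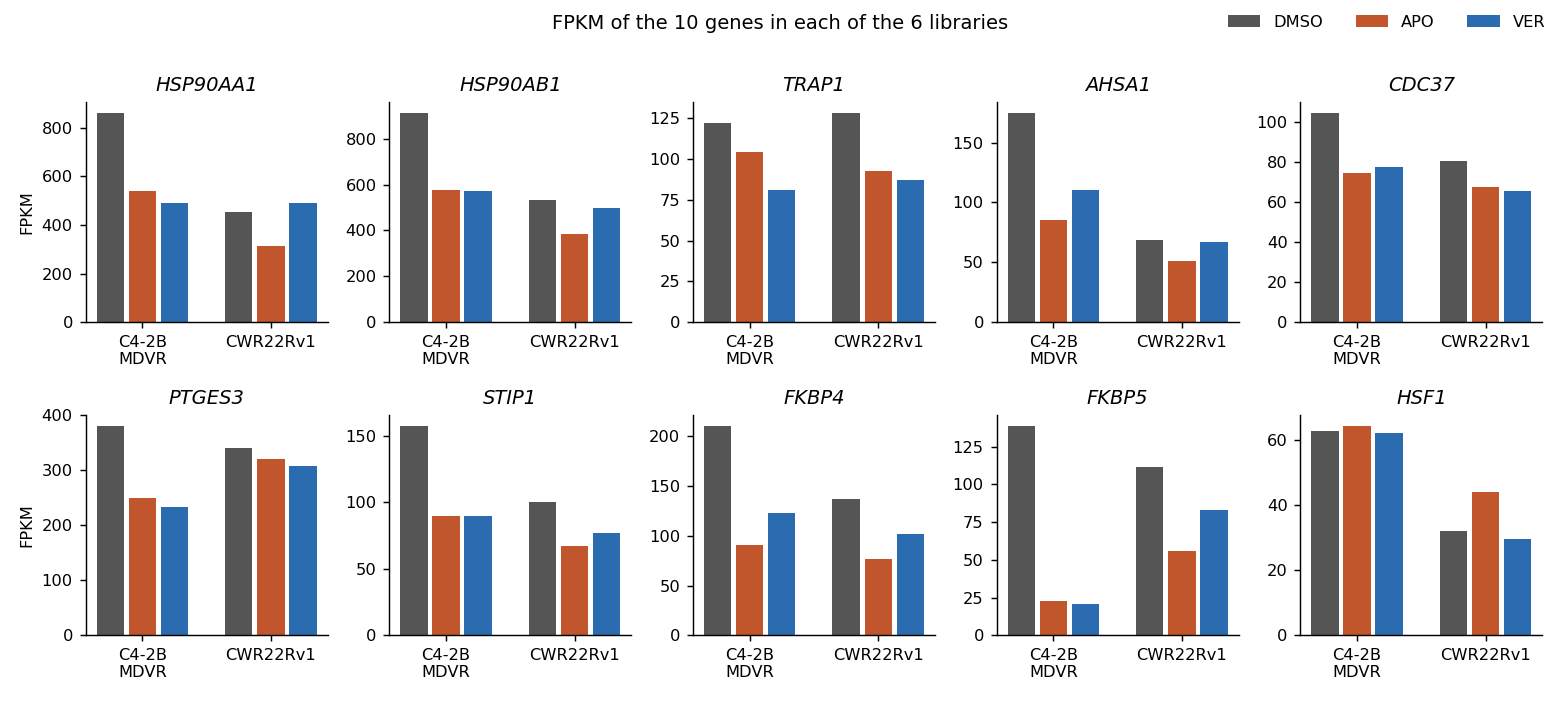
Level of each of the 10 genes in FPKM (vertical axes, starting at 0) in the 6 libraries, 1 bar per library. The C4-2B MDVR DMSO library has the tallest bar for 8 of the 10 genes, and the bars of FKBP5 fall from 139 FPKM to 22.9 and 20.6 FPKM in the treated C4-2B MDVR libraries.

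The 2 cytosolic HSP90s were the most abundant of the 10 in 5 of the 6 libraries, and with APO in CWR22Rv1 p23 was slightly above HSP90AA1. HSP90AA1, the stress-inducible isoform, is annotated on chromosome 14 from 102080738 to 102139699 on the minus strand (GRCh38). Its level in C4-2B MDVR was 863 FPKM with DMSO, 539 FPKM with APO and 489 FPKM with VER, and in CWR22Rv1 it was 452, 315 and 490.0 FPKM in the same order. It was thus lower with both inhibitors in the first line but lower with APO alone in the second. The log2 fold changes, taken as differences of log2(FPKM + 0.1), against DMSO were -0.68 (APO) and -0.82 (VER) in C4-2B MDVR, and -0.52 and 0.12 in CWR22Rv1. HSP90AB1, the constitutive isoform, lies on chromosome 6 from 44246166 to 44253888. Its level was 914, 577 and 572 FPKM with DMSO, APO and VER in C4-2B MDVR and 534, 383 and 497 FPKM in CWR22Rv1. HSP90AB1 ranked 98 among all genes by FPKM in the C4-2B MDVR DMSO library, ahead of HSP90AA1 at rank 106. Its log2 fold changes of -0.66 and -0.68 in C4-2B MDVR were close to those of HSP90AA1, and in CWR22Rv1 they were -0.48 with APO and -0.10 with VER. The ratio of HSP90AA1 to HSP90AB1 stayed between 0.822 and 0.985 over the 6 libraries. The summed level of both was 1777 FPKM in C4-2B MDVR with DMSO, against 1116 with APO and 1061 with VER.

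The promoters of both cytosolic HSP90 genes and of STIP1 are shown. Of the 8 genes matched, these 3 hold a pair of units of the heat shock element, the motif of HSF1. Windows from 250 bases before to 50 bases after a RefSeq start site were available for 8 of the 10 genes, in 14 windows, on GRCh38.p14. They were searched for the pairs GAANNTTC and TTCNNGAA, which read the same on both strands, and for the triplet, on both strands, in which both pairs overlap by their middle 3 bases. Capitals mark the matched pairs and triplets. HSP90AA1 is at chr14:102086995-102087294 (minus strand), HSP90AB1 at chr6:44247693-44247992 (plus strand) and STIP1 at chr11:64185921-64186220 (plus strand), each written 5′ to 3′.
HSP90AA1: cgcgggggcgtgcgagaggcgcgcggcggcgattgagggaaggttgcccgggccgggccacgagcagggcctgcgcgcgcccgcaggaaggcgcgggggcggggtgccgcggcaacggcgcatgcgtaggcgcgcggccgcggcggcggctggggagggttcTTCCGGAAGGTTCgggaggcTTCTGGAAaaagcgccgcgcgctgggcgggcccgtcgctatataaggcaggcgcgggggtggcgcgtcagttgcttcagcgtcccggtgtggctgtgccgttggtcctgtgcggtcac
HSP90AB1: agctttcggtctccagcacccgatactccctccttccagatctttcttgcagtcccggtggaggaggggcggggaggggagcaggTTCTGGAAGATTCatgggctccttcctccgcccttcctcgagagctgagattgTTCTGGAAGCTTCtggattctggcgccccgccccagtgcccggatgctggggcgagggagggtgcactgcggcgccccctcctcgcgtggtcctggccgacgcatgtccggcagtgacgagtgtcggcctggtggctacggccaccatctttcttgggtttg
STIP1: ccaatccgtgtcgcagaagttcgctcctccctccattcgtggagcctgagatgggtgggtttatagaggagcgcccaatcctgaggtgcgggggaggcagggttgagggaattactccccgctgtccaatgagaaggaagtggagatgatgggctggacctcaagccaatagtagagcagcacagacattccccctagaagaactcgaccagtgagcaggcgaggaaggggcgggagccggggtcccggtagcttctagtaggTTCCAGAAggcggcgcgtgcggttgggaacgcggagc

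The HSP90AA1 window holds 1 triplet, with its first base at -88 from the start site, and a further pair at -68. The HSP90AB1 window, the third listed for this gene, holds 2 triplets, at -165 and -112. STIP1 holds 1 pair at 13 bases after the start. A pair of either kind was in 3 of the 14 windows and in 13.5% of the 35116 windows of the table. The triplet was in 2 of the 14 and in 0.490% of the table. Windows of AHSA1, CDC37, PTGES3, TRAP1 and FKBP5 held neither, nor did the other windows of HSP90AA1, HSP90AB1 and STIP1. The steroid receptor half-site AGAACA, searched on both strands, was in 14.8% of all windows and in 4 windows of AHSA1, FKBP5 and HSP90AB1. The AHSA1 windows overlap and share the same match, and in HSP90AB1 the half-site overlaps the pair at -112. The full palindromic element, AGAACA followed after 3 bases by TGTTCT, was in none of the 14 windows and in 1 window of the whole table. The GC box GGGCGG was in 11 of the 14 windows and in 45.0% of all windows. These matches describe the letters of the windows and not binding, which was not measured.

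**Figure D2:**
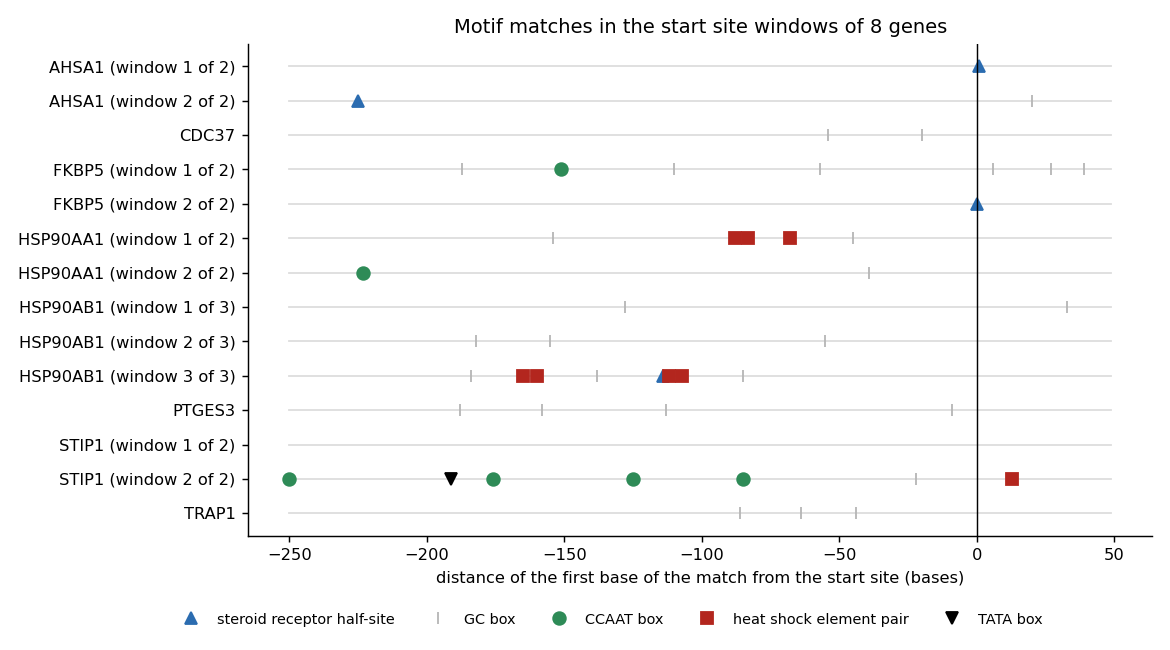
Positions of motif matches in the 14 promoter windows of 8 of the genes, with distance from the start site in bases on the horizontal axis and 1 line per window. Heat shock element matches are seen in 1 window each of HSP90AA1, HSP90AB1 and STIP1.

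TRAP1 is the mitochondrial HSP90 and was the least abundant of the 3 chaperones. It is annotated on chromosome 16 from 3651639 to 3717597 on the minus strand. Its level was 122, 104 and 81.0 FPKM with DMSO, APO and VER in C4-2B MDVR and 128, 92.7 and 86.9 FPKM in CWR22Rv1. The VER libraries were the lowest of both lines. Log2 fold changes were -0.23 with APO, within 1.2-fold, and -0.59 with VER in C4-2B MDVR, and -0.47 and -0.56 in CWR22Rv1. The APO value of C4-2B MDVR passed 1.2-fold when libraries were scaled to the same sum (-0.38). With VER in CWR22Rv1 TRAP1 had the lowest log2 fold change of the 10 genes. HSP90AA1 was 7.05 times as abundant as TRAP1 in C4-2B MDVR with DMSO, 5.17 times with APO and 6.04 times with VER, against 3.52, 3.40 and 5.64 times in CWR22Rv1.

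Among the co-chaperones that start the cycle, STIP1 was lower in every inhibitor library than in its DMSO library. STIP1 lies on chromosome 11 from 64185272 to 64204543. In C4-2B MDVR its level was 157 FPKM under DMSO, 89.4 FPKM under APO and 89.5 FPKM under VER, and it was 100.0, 67.3 and 76.6 FPKM in CWR22Rv1. Both inhibitors thus left nearly the same level in C4-2B MDVR, with log2 fold changes of -0.81 for each, and in CWR22Rv1 they were -0.57 and -0.39. CDC37, the adaptor that brings protein kinases to HSP90, lies on chromosome 19 from 10391134 to 10420121 on the minus strand. CDC37 was at 105, 74.5 and 77.3 FPKM with DMSO, APO and VER in C4-2B MDVR and at 80.4, 67.3 and 65.4 FPKM in CWR22Rv1. It varied little, by 1.60 times from the lowest to the highest library. Its log2 fold changes were -0.49 and -0.43 in C4-2B MDVR. Those of CWR22Rv1, -0.26 with APO and -0.30 with VER, lay at the 1.2-fold limit of 0.263, with only VER past it.

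AHSA1, the activator of the HSP90 ATPase, had the largest decrease after the immunophilins with APO in C4-2B MDVR, but not with VER. It lies on chromosome 14 from 77457870 to 77469474. In C4-2B MDVR AHSA1 was at 175 FPKM under DMSO, 85.1 FPKM under APO and 111 FPKM under VER, and at 68.9, 51.3 and 67.0 FPKM in CWR22Rv1. The C4-2B MDVR DMSO library was above the other 5, and all C4-2B MDVR libraries were above all of CWR22Rv1. Log2 fold changes were -1.04 (APO) and -0.66 (VER) in C4-2B MDVR, and -0.43 and -0.04 in CWR22Rv1. PTGES3, or p23, stabilises the closed ATP-bound dimer and lies on chromosome 12 from 56663341 to 56688408 on the minus strand. It was at 381, 250.1 and 234 FPKM with DMSO, APO and VER in C4-2B MDVR, and at 341, 320.1 and 308 FPKM in CWR22Rv1. Decreases past 1.2-fold were seen in C4-2B MDVR, with log2 fold changes of -0.61 and -0.70, whereas those of CWR22Rv1 were -0.09 and -0.15, within 1.2-fold. Relative to the summed cytosolic HSP90s, p23 was at 0.214 to 0.224 in the 3 C4-2B MDVR libraries and at 0.346, 0.459 and 0.312 in CWR22Rv1 with DMSO, APO and VER.

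FKBP5 had the largest decrease of the 10 genes in each contrast with DMSO except VER in CWR22Rv1, where that of TRAP1 was larger. FKBP4, which favours receptor transport and signalling, lies on chromosome 12 from 2794953 to 2805423. Its C4-2B MDVR levels were 210.3 FPKM under DMSO, 90.9 FPKM under APO and 123 FPKM under VER, beside 136, 76.7 and 102 FPKM in CWR22Rv1. In both lines APO gave the lowest level and VER an intermediate one, with log2 fold changes of -1.21 and -0.77 in C4-2B MDVR and -0.83 and -0.42 in CWR22Rv1. FKBP5, known as an androgen- and glucocorticoid-induced gene whose product lowers hormone binding of the glucocorticoid receptor, lies on chromosome 6 from 35573585 to 35728583 on the minus strand. Its levels in CWR22Rv1 were 111 FPKM with DMSO, 56.0 with APO and 82.9 with VER, beside the C4-2B MDVR values given above. The DMSO library was 6.06 times as high as APO and 6.75 times as high as VER in C4-2B MDVR, against 1.99 and 1.34 times in CWR22Rv1. The log2 fold changes were -2.59 and -2.75 in C4-2B MDVR and -0.99 and -0.42 in CWR22Rv1. In C4-2B MDVR FKBP5 went from rank 653 of all genes with DMSO to 4452 with APO and 4849 with VER. Of genes that averaged 10 FPKM or more, 0.3% had a lower log2 fold change than FKBP5 with APO in C4-2B MDVR and 1.0% with VER, and in CWR22Rv1 these shares were 7.9% and 17.1%. Over the 6 libraries FKBP5 spanned 6.75 times, the widest of the 10 genes, followed by AHSA1 with 3.41 times.

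The balance of the 2 competing immunophilins was followed as the ratio of their levels. FKBP4 was 1.51 times as abundant as FKBP5 in C4-2B MDVR with DMSO, 3.97 times with APO and 5.99 times with VER. In CWR22Rv1 the ratio was 1.23, 1.37 and 1.23 in the same order. It thus stayed near its DMSO level in CWR22Rv1 but not in C4-2B MDVR.

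**Figure D3:**
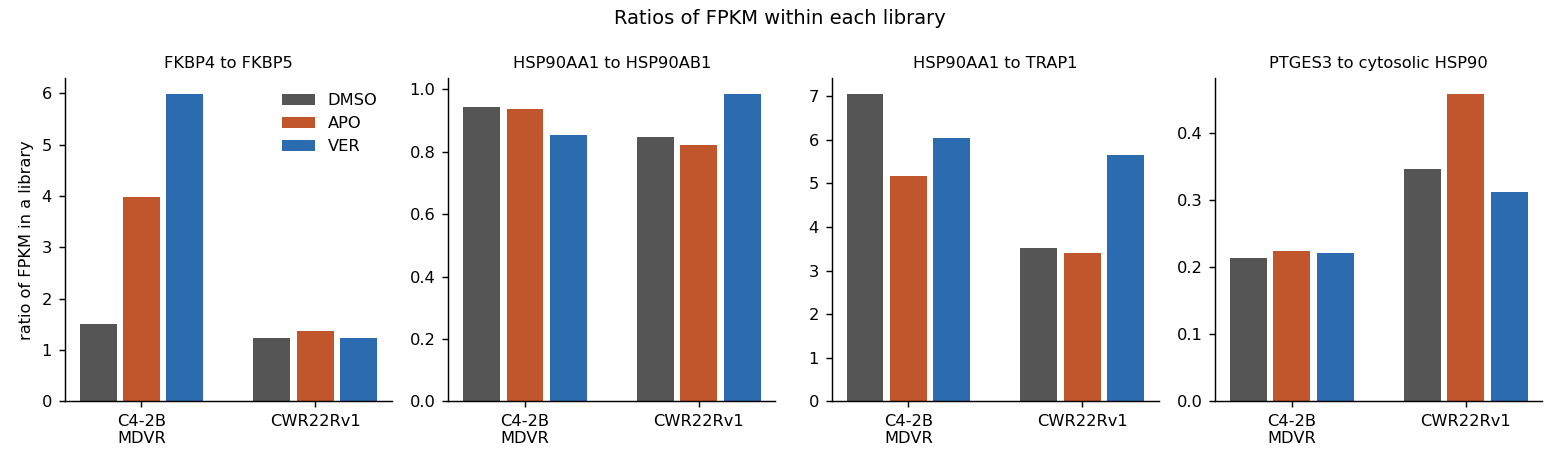
Ratios of FPKM between genes (vertical axes) in the 6 libraries, for FKBP4 to FKBP5, HSP90AA1 to HSP90AB1, HSP90AA1 to TRAP1 and PTGES3 to the summed cytosolic HSP90s. The ratio of FKBP4 to FKBP5 is 3.97 and 5.99 in the treated C4-2B MDVR libraries and at most 1.51 in the other 4.

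HSF1, the transcription factor, was lower past 1.2-fold in no contrast with DMSO, whereas each of the 9 chaperones and co-chaperones was in at least 1. It is annotated on chromosome 8 from 144291591 to 144314722. Its level was 63.0, 64.5 and 62.4 FPKM with DMSO, APO and VER in C4-2B MDVR and 32.1, 44.0 and 29.7 FPKM in CWR22Rv1. The C4-2B MDVR libraries were within 1.2-fold of one another, with log2 fold changes of 0.03 and -0.01. In CWR22Rv1 it was higher with APO, by a log2 fold change of 0.45, and within 1.2-fold with VER, at -0.11. It was the only gene of the 10 with an increase past 1.2-fold in any of the 4 contrasts. HSF1 is regulated mainly as a protein, by its release from chaperones and by phosphorylation, which RNA levels do not show.

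Counted by the 1.2-fold threshold that the study used, 8 of the 10 genes were lower and 0 higher with APO in C4-2B MDVR, where 35.4% of the 20122 genes tested were lower and 37.7% higher. With VER in C4-2B MDVR 9 were lower and 0 higher, beside 34.9% and 35.6% of all genes. With APO in CWR22Rv1 7 were lower and 1 higher, beside 39.2% and 35.6% of 21608 genes, and with VER 5 were lower and 0 higher, beside 32.3% and 32.1%. Among protein-coding genes the shares that were lower were 34.5%, 34.3%, 37.5% and 31.7% in the 4 contrasts. The median log2 fold change of the 10 genes was -0.67, -0.69, -0.47 and -0.22 in this order, and that of genes that averaged 10 FPKM or more was 0.01, -0.03, 0.03 and -0.03. Decreases past 2-fold were seen with APO in C4-2B MDVR for FKBP5, FKBP4 and AHSA1, where 13.3% of all genes passed it, and with VER for FKBP5, again with 13.3% of all genes. In CWR22Rv1 none of the 10 passed 2-fold, beside 16.8% of all genes with APO and 8.92% with VER. Most decreases lay inside the spread of other genes. With APO in C4-2B MDVR, for example, the 5th percentile of genes of at least 10 FPKM was -1.10, and FKBP4 and FKBP5 were below it. Both contrasts of a line share their DMSO library. The C4-2B MDVR DMSO library was the highest of the 6 for 8 of the 10 genes, and for 22.8% of the 7805 genes that averaged 10 FPKM or more, so that a high value in this library enters both of its contrasts. The 10 genes held 0.464% of its FPKM and 0.228% to 0.283% of that of the other 5.

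**Figure D4:**
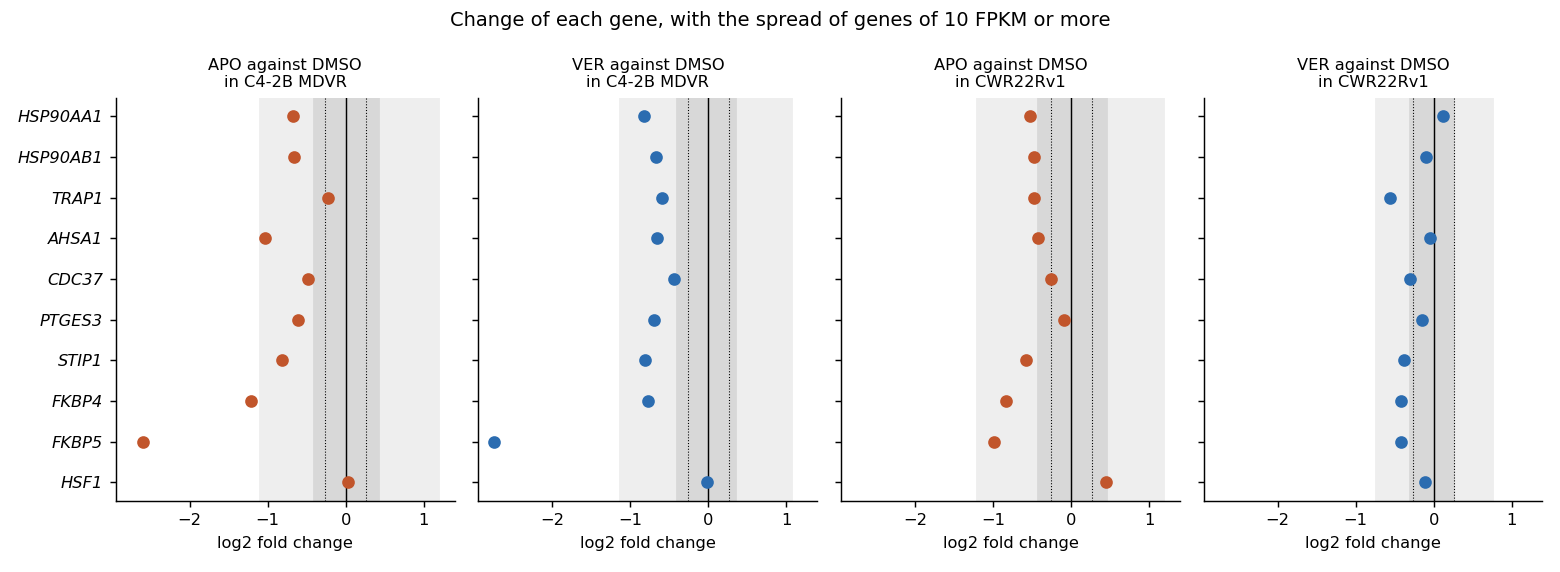
Log2 fold change of each gene against DMSO of the same line (horizontal axis), 1 dot per gene and contrast, with dotted lines at 1.2-fold. Dark and light bands cover the 25th to 75th and the 5th to 95th percentile of genes that averaged 10 FPKM or more, and FKBP5 lies outside the light band in both C4-2B MDVR contrasts (-2.59 and -2.75).

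The lines also differed under DMSO. Of the 10 genes 8 were lower past 1.2-fold in CWR22Rv1 than in C4-2B MDVR and 0 were higher, beside 35.5% and 39.9% of 23671 genes. AHSA1 had the largest difference, with a log2 fold change of -1.34, followed by HSF1 (-0.97), HSP90AA1 (-0.93) and HSP90AB1 (-0.78). TRAP1 and p23 were within 1.2-fold, at 0.07 and -0.16. The differences of FKBP5 (-0.32) and CDC37 (-0.38) fell within 1.2-fold when libraries were scaled to their FPKM without mitochondrial genes. The line and the enzalutamide in the medium cannot be told apart in this comparison.

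APO and VER were compared directly at 10 µM and 48 h. In CWR22Rv1 5 of the 10 genes were higher with VER than with APO past 1.2-fold and 1 was lower, beside 37.3% and 34.5% of all genes. The higher genes were HSP90AA1, by a log2 difference of 0.64, FKBP5 (0.57), FKBP4 (0.41), HSP90AB1 (0.38) and AHSA1 (0.38), and the lower gene was HSF1 (-0.57). Scaling libraries to the same sum brought FKBP4, HSP90AB1 and AHSA1 within 1.2-fold. In C4-2B MDVR 2 genes were higher with VER and 1 lower, beside 28.5% and 32.5% of all genes. FKBP4 and AHSA1 were the higher genes, at 0.44 and 0.38, and TRAP1 the lower one, at -0.36, which became -0.22 after scaling to the same sum. The remaining 7 lay within 1.2-fold, from -0.15 for FKBP5 to 0.05 for CDC37.

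More of the other HSP90 co-chaperones were lower than higher, except with APO in CWR22Rv1. The part that was lower was near that of all genes with APO in C4-2B MDVR and with VER in CWR22Rv1. It was well above that of all genes only with VER in C4-2B MDVR. Of all tested genes, 37.7%, 35.6%, 35.6% and 32.1% were higher past 1.2-fold in the contrasts with DMSO, in the order used above. The shares that were lower were 35.4%, 34.9%, 39.2% and 32.3%. These shares stand beside the counts of this list and of the lists below. Of 28 genes, 5 were higher and 11 lower with APO in C4-2B MDVR, 5 and 17 with VER, and in CWR22Rv1 9 and 3 with APO and 5 and 9 with VER, with medians of -0.14, -0.29, 0.03 and -0.15. STUB1, the ubiquitin ligase that binds HSP70 and HSP90, and ST13, the HSP70-interacting co-chaperone HIP, were within 1.2-fold in all 4 contrasts (STUB1 from -0.24 to 0.04, ST13 from 0.13 to 0.17). TELO2, which acts with HSP90 in assembling PI3K-related kinases, had the lowest mean log2 fold change of the list over the 4 contrasts. Its log2 fold changes were -1.25, -1.04, -1.10 and -0.69, from 40.6 FPKM with DMSO in C4-2B MDVR and 30.5 FPKM in CWR22Rv1. FNIP1, a co-chaperone that slows the HSP90 ATPase, had the highest mean, from values of 0.78, 0.35, 0.77 and 0.38, but was the highest in no single contrast. HSP90B1, the HSP90 of the endoplasmic reticulum, was at 461, 791 and 936 FPKM with DMSO, APO and VER in C4-2B MDVR and at 1162, 555 and 1311 FPKM in CWR22Rv1. It was thus higher with both inhibitors in C4-2B MDVR, where HSP90AA1 and HSP90AB1 were lower.

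More HSF1 target and other heat shock response genes were lower than higher, except with VER in CWR22Rv1. With APO in CWR22Rv1 the part that was lower was near that of all genes. Some of these genes, HSPD1 among them, are also in the list above or in the mitochondrial list below. Shares of all genes for these counts are given above. Of 25 genes, 6 were higher and 13 lower with APO in C4-2B MDVR and 8 and 12 with VER, and 6 and 10 with APO and 8 and 2 with VER in CWR22Rv1, with medians of -0.37, -0.25, -0.11 and -0.05. HSPA8, the constitutive HSP70, was at 1332, 1399 and 719 FPKM with DMSO, APO and VER in C4-2B MDVR and at 713, 545 and 1210.0 FPKM in CWR22Rv1. HSPA1B, an inducible HSP70 gene, had log2 fold changes of -2.20, -0.91, -1.64 and 0.53, but shares reads with the nearly identical HSPA1A, so its level is uncertain. ZFAND2A, an arsenite- and heat-inducible gene, was higher in all 4 contrasts, by 1.24, 1.66, 1.33 and 0.82. The mitochondrial chaperonin HSPD1 was higher past 1.2-fold with APO in C4-2B MDVR (0.36) and within 1.2-fold elsewhere. Of 5 other heat shock factors and their binding proteins 4 passed the filter, and in the order of contrasts above 0, 1, 1 and 1 of them were higher and 1, 2, 2 and 2 lower. HSF4 had log2 fold changes of -1.42, 0.09, -1.84 and -0.56, and HSBP1, a negative regulator of HSF1, of -0.03, -0.40, -0.28 and 0.02.

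FKBP4 and FKBP5 were lower past 1.2-fold in all 4 contrasts with DMSO, though by unlike amounts. Other immunophilins included both higher and lower genes in each contrast. The shares of all genes given above apply to this list and to the mitochondrial one. Of 19 genes, 17 passed the filter in C4-2B MDVR and 18 in CWR22Rv1. Among the 17, 4 were higher and 7 lower with APO and 5 and 8 with VER. Among the 18 these counts were 4 and 9 with APO and 2 and 5 with VER. Medians were -0.02, -0.02, -0.39 and -0.10 in the order of contrasts above. PPIA, the abundant cytosolic cyclophilin, had log2 fold changes of -0.27, -0.84, -0.83 and -0.79. PPIB, a cyclophilin of the endoplasmic reticulum, was at 1.02, 0.67, -0.19 and 0.57. FKBP7, also of the endoplasmic reticulum, had the lowest mean log2 fold change of the list, from values of -2.66, -1.43, -2.22 and -0.16 and levels of at most 3.98 FPKM. Of 15 mitochondrial chaperones and proteases, listed as the company of TRAP1, 5 were higher and 5 lower with APO and 3 and 6 with VER in C4-2B MDVR, and 6 and 4 with APO and 1 and 6 with VER in CWR22Rv1, with medians of -0.09, -0.19, 0.08 and -0.20. LONP1, the matrix protease, was higher than with DMSO by 1.33, 0.83 and 1.10 in the first 3 contrasts and at 0.14 in the last. HSPE1, the partner of HSPD1, had log2 fold changes of -0.50, -0.67, -0.79 and -0.23, and SPG7, a protease of the inner membrane, of -0.70, -0.33, -1.40 and -0.03.

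Steroid receptors, the clients of these complexes, and their target genes were read beside the 10 genes. Of 6 receptors, 3 passed the filter in each line. NR3C1, the glucocorticoid receptor, was listed at 0 in the DMSO library of C4-2B MDVR and at 0.126 and 0.101 FPKM with APO and VER, and it was at 3.53, 10.3 and 5.57 FPKM in CWR22Rv1. NR3C2, the mineralocorticoid receptor, stayed between 1.11 and 4.05 FPKM. Of 18 target genes of steroid receptors, 3 were higher and 14 lower with APO and 1 and 14 with VER in C4-2B MDVR, and 3 and 11 with APO and 5 and 10 with VER in CWR22Rv1. Of all tested genes, 37.7%, 35.6%, 35.6% and 32.1% were higher and 35.4%, 34.9%, 39.2% and 32.3% lower. The medians of the 18 target genes were -1.79, -1.37, -0.49 and -0.33. FKBP5, at -2.59, -2.75, -0.99 and -0.42, was below this median in each contrast. The kallikrein gene KLK2 had values of -3.84, -2.30, -3.38 and -0.68. ACSL3, an acyl-CoA synthetase, was at -2.31, -1.44, -1.46 and 0.36. TSC22D3 (GILZ), which is like FKBP5 a glucocorticoid-induced gene, was higher in all 4 contrasts, by 0.95, 2.15, 1.40 and 2.52.

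**Figure D5:**
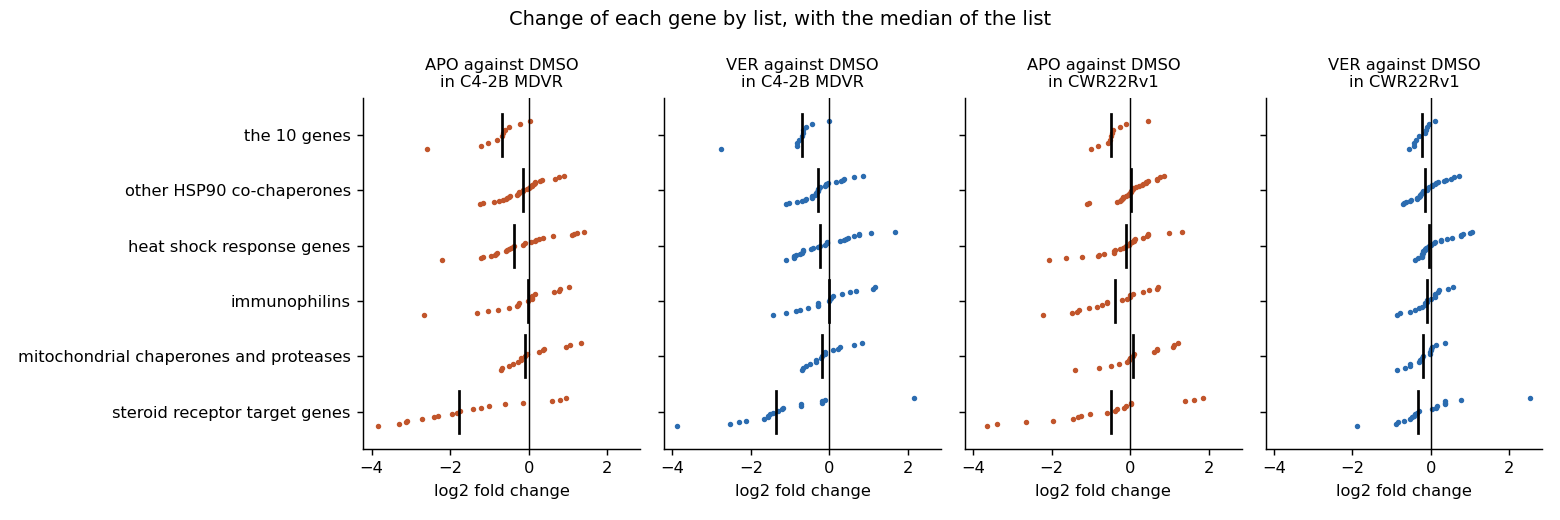
Log2 fold changes (horizontal axis) of the genes of 6 lists (vertical axis) in the 4 contrasts with DMSO, 1 dot per gene and a bar at the median of each list. The steroid receptor target genes have the lowest median of the 6 lists in each contrast. It is -1.79 (APO) and -1.37 (VER) in C4-2B MDVR, and -0.49 (APO) and -0.33 (VER) in CWR22Rv1.

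The genes whose pattern was most like that of FKBP5 were found among 7790 genes that averaged 10 FPKM or more by the root mean square difference over the 4 log2 fold changes. CDK1 (0.284) and MCM7 (0.389) were among the 3 closest. For HSP90AA1 they were MYSM1 (0.0849), MTERF1 (0.120) and the gene ZNF680 (0.133). Within the 10 genes the most alike pair was HSP90AA1 and HSP90AB1 (0.132), followed by HSP90AB1 with STIP1 (0.180) and CDC37 with PTGES3 (0.184). The 4 contrasts behind these distances share 2 DMSO libraries.

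Several of the genes have processed pseudogenes that could take up or lend reads. Pseudogenes named after HSP90AA1, HSP90AB1, CDC37, PTGES3, STIP1 and FKBP4 were found in the tables, and their summed FPKM was at most 0.0329% of the mean of the parent gene. The highest were PTGES3P1, with at most 0.372 FPKM, and HSP90AA2P, with at most 0.101 FPKM.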

How the data were processed

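RNA-seq of 6 libraries was analysed, 1 per line and treatment, grouped by their labels. Per the labels, poly-A RNA was made into stranded libraries with a KAPA kit, whereas the paper names a TruSeq kit. The authors aligned reads with HISAT and deposited 1 table of FPKM per library, from Cufflinks and normalised between libraries by Cuffnorm. The submitters' processing notes name GRCh38, and tool versions are not given in the sources used here. FPKM are not counts, so no counting error or detection limit was computed, and precision is unknown at 1 library per condition.

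Identifiers were matched to GENCODE 29 (57047 of 60658), which also gave gene coordinates, and promoter windows came from RefSeq (GRCh38.p14). Fold changes were differences of log2(FPKM + 0.1), which understate changes of low genes, for genes that exceeded 0.1 FPKM in 1 or more libraries of a line. A gene past 1.2-fold was counted as higher or lower. Genes named were all 10 members and, of each list with a mean of at least 1 FPKM, the 2 highest in level and the 1 highest and 1 lowest in mean log2 fold change, all detected steroid receptors, the leading pseudogenes, and the 3 genes most like FKBP5 and HSP90AA1. Some genes covered by this rule are not reported here. The members and lists were chosen with earlier results of these data known. Alternatives were pseudocounts of 0.01 and 1, other filters, scaling to the same sum (TPM), to the sum without mitochondrial genes and to a median ratio, and thresholds of 1.5-fold and 2-fold. Computations used Python 3.11.15, pandas 2.3.3 and numpy 2.4.6.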

Additional observations from a re-analysis of the deposited data

Results flagged for a closer look

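HSP90AA1 moved in opposite directions in the 2 lines with VER, with log2 fold changes of -0.82 in C4-2B MDVR and 0.12 in CWR22Rv1, the latter within 1.2-fold. Among the other genes whose fold changes are given in the report, 4 differed in direction between the lines by more than 1.2-fold each way. With VER these were HSPA1B (-0.91 in C4-2B MDVR and 0.53 in CWR22Rv1), HSPA8 (-0.89 and 0.76) and ACSL3 (-1.44 and 0.36). With APO it was HSP90B1 (0.78 and -1.07). With 1 library per condition, none of these differences between lines was tested.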

How the results depend on the processing

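Each condition had 1 library, which is the main limit on every value, and no library could be left out. No paired analysis was possible because the labels give no replicates. The number of the 10 genes past 1.2-fold in either direction (8 for APO and 9 for VER in C4-2B MDVR, 8 and 5 in CWR22Rv1) was 8 to 9, 9, 8 to 9 and 4 to 5 under the other pseudocounts, filters and scalings. Of all tested genes, 73.1%, 70.5%, 74.8% and 64.4% passed 1.2-fold in either direction in these contrasts as reported. At 2-fold the number of the 10 was 3 and 1 for APO and VER in C4-2B MDVR and 0 with either in CWR22Rv1. The shares of all genes at 2-fold were 28.7%, 27.8%, 30.6% and 19.8%. At 1.5-fold it was 7 and 8 of the 10 in C4-2B MDVR, and 2 with APO and 0 with VER in CWR22Rv1. The shares of all genes at 1.5-fold were 48.3%, 46.1%, 51.2% and 36.6%. The median of the 10 with VER in CWR22Rv1 was -0.29 after scaling to the same sum and also after scaling without mitochondrial genes, against -0.22. The median of genes with at least 10 FPKM under APO was 0.01 in C4-2B MDVR and 0.03 in CWR22Rv1 as reported, -0.13 and 0.15 after scaling to the same sum, and -0.15 and -0.12 after scaling without mitochondrial genes. Of 40 member values against DMSO, 4 changed sign under some alternative, all within 1.2-fold, and 3 crossed 1.2-fold, namely TRAP1 in C4-2B MDVR (APO) and CDC37 in CWR22Rv1 (either inhibitor). FPKM give no counting error, so what depth limits was not tested.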
